A study of Mus musculus with 3 samples.

Results

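Collagen chain genes, each encoding 1 α chain of a collagen, were picked from the expression table by their official symbols, which run Col, type number, a, chain number. The pattern matched 44 of 55471 listed features, each on a single row. They were followed through successive stages of a selection made from JC, a mouse mammary carcinoma line labelled epithelial-like, with WT genotype throughout. JC-WT has the treatment label WT and no isolation step in the protocol. JC-P cells, which the labels call parental, came out of mammary fat pad tumours on day 14. JC-M3 cells derive from JC-P cells and were freed with type I collagenase from lung metastases on day 28 of each of 3 rounds of tail vein injection. JC-P has the treatment label metastasis, as does JC-M3, so its fat pad origin rests on the protocol. RNA came from cells cultured with 10% fetal bovine serum, and messenger RNA of each population, captured by its poly(A) tail, was sequenced as 1 library. The labels do not say how many mice, tumours or clones stand behind a population. Without replicates there was no test, and every ratio compares single libraries with no replicate check.

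A collagen molecule is a trimer of α chains wound around each other along stretches in which glycine recurs at regular steps. The chains of one type may be identical or come from different genes, so the level of a partner limits which trimers a cell can make. Fibril-forming types such as I, III and V carry load in connective tissue, type IV forms the sheet of basement membranes, type VI forms beaded filaments, and other types decorate fibrils or anchor epithelia. In mammary tumours fibroblasts are known as the main source of fibrillar collagen, while carcinoma cells can make basement membrane collagens and, in some lines, fibrillar chains.

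Abundance was deposited as TPM, reads divided by gene length and scaled to a fixed total per library, so that levels of different genes can be compared. Reads assigned to genes, recovered from those values, numbered 18093420 (JC-WT), 22132591 (JC-P) and 23386412 (JC-M3). A gene counted as measured where its mean over the 3 libraries was at least 1 TPM, as for 19 collagen genes and 14527 of all features. Ratios are log2 values of TPM + 0.5. The range in brackets after a ratio is the exact 95% counting interval of the TPM ratio without that addition, and covers counting error only, not variation between cultures. For a gene of a few TPM the log2 value lies nearer 0 than the plain ratio and can fall outside its interval. Markers bore out the labelled cell type in part. The keratin gene Krt8 had 1503 (JC-WT), 1873 (JC-P) and 681 TPM (JC-M3), whereas Epcam, an epithelial adhesion gene, was listed at 0 TPM in all 3 libraries, and Cdh1, the epithelial cadherin gene, had 0 (JC-WT), 0.83 (JC-P) and 0.67 TPM (JC-M3).

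Collagen transcripts made up a larger share of the JC-M3 library than of the others, and the make-up of the pool differed most in its basement membrane and fibrillar types. The 44 genes together had 1871 (JC-WT), 2016 (JC-P) and 2888 TPM (JC-M3), which is 0.187% (JC-WT), 0.202% (JC-P) and 0.289% (JC-M3) of all TPM. Most of this pool, 81.6% (JC-WT), 70.0% (JC-P) and 74.7% (JC-M3), lay in the same 5 genes, Col4a1, Col4a2, Col18a1, Col6a1 and Col1a1. Col4a1 led in JC-WT with 25.9% of the collagen TPM, Col18a1 in JC-P with 19.7% and Col1a1 in JC-M3 with 32.8%. The 6 collagen IV genes together held 47.2% (JC-WT), 30.4% (JC-P) and 21.6% (JC-M3) of the pool, at a summed level of 884 (JC-WT), 612 (JC-P) and 625 TPM (JC-M3). The 11 fibrillar genes held 9.45% (JC-WT), 18.4% (JC-P) and 37.5% (JC-M3), at a summed level of 177 (JC-WT), 370.3 (JC-P) and 1083 TPM (JC-M3). Col1a1 was the bulk of that fibrillar sum in each library, as the shares of the collagen pool show.

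**Figure D1:**
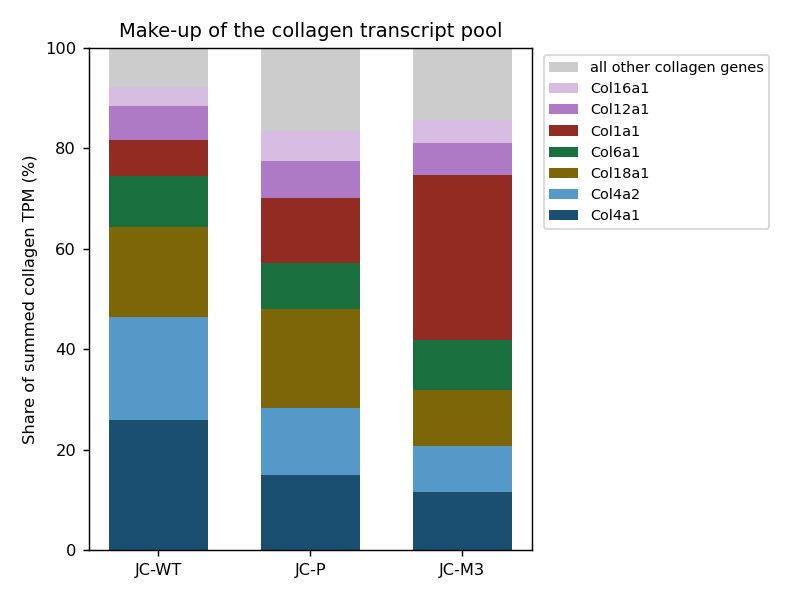
Share of the summed collagen TPM (vertical axis, %) taken by 7 abundant chain genes and by all other collagen genes together, for 1 library of each population. The Col1a1 band reaches 32.8% in JC-M3, and the Col4a1 band is widest in JC-WT at 25.9%.

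Ratios of 2-fold or more upward were a larger share of the measured collagen genes than of measured features at large. In JC-P over JC-WT, 6 of 19 lay at least 2-fold higher (31.6%, against 4.76% of all measured features) and 0 lay 2-fold lower (against 2.33%), while 7.1% of all features passed in either direction. In JC-M3 over JC-P, 5 lay higher (26.3%, against 3.82%) and 2 lower (10.5%, against 5.38%, or 9.2% in either direction). In JC-M3 over JC-WT, 8 lay higher (42.1%, against 6.14%) and 0 lower (against 5.27%, or 11.4% in either direction). The median log2 ratio of the 19 genes was 0.74 for JC-P/JC-WT, 0.14 for JC-M3/JC-P and 0.88 for JC-M3/JC-WT, and that of all measured features 0.01 for JC-P/JC-WT, -0.01 for JC-M3/JC-P and 0.00 for JC-M3/JC-WT. The 3 comparisons share libraries, so these figures are not independent of each other. Col1a2 entered the 19 through JC-M3 alone, the single library where it exceeded 1 TPM, and so had to differ. Counting intervals left out no change for 18 of the 19 genes in each comparison, but they also did so for 55.3% for JC-P/JC-WT, 59.5% for JC-M3/JC-P and 60.0% for JC-M3/JC-WT of all measured features with whole reads, so at this depth most well-covered genes pass that mark. The exceptions were Col8a1 in JC-P over JC-WT, Col4a2 in JC-M3 over JC-P and Col11a2 in JC-M3 over JC-WT.

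**Figure D2:**
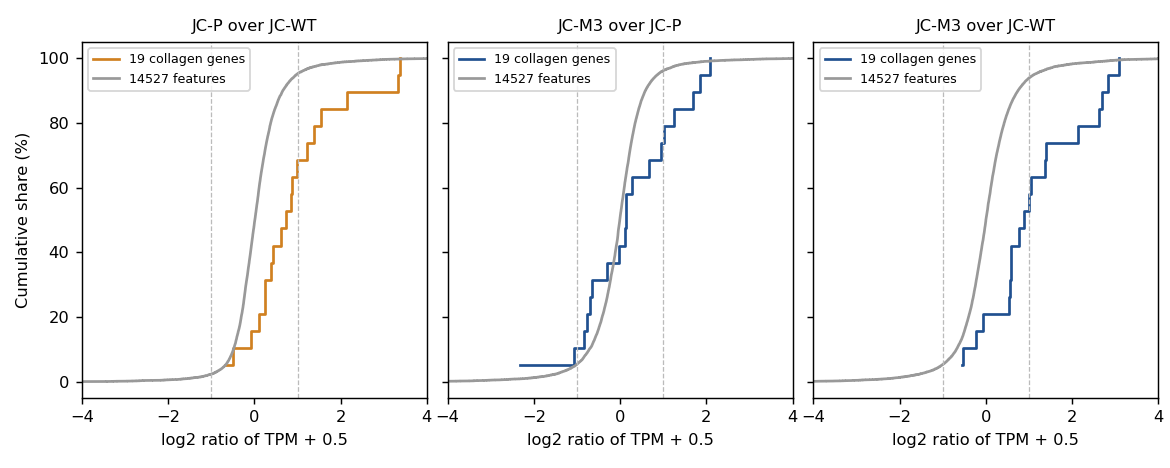
Cumulative share (vertical axis, %) of features up to each log2 ratio of TPM + 0.5 (horizontal axis), for 19 collagen genes and 14527 measured features, with 1 panel per comparison and dashed lines at 2-fold. The collagen curve lies right of the curve of all features over most of its range in both comparisons with JC-WT, and crosses it in JC-M3 over JC-P, where the collagen median is 0.14.

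**Figure D3:**
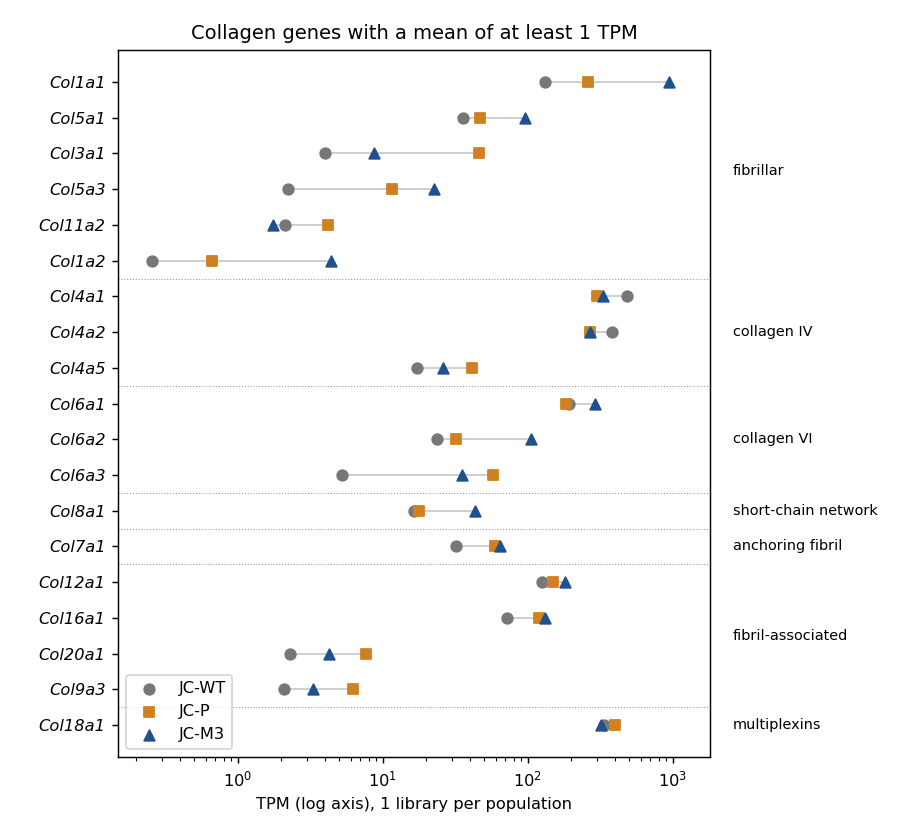
TPM (horizontal axis, logarithmic) of the 19 measured collagen genes, sorted by class, with 1 point per library. JC-M3 lies farthest right for Col1a1, Col1a2, Col5a1, Col5a3 and Col6a2, JC-P for Col3a1 and Col6a3, and JC-WT for Col4a1 and Col4a2.

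Among fibril-forming collagens, Col1a1 was the most abundant in every library. It lies at chr11:94936224-94953042 (GRCm38, GENCODE M21) and encodes the α1 chain of type I, the main collagen of bone, skin and tumour stroma. It had 132 (JC-WT), 261 (JC-P) and 949 TPM (JC-M3) and ranked 110 among all listed features in JC-M3. Each stage lay above the one before, with ratios of 0.98 (0.93 to 1.03) for JC-P over JC-WT and 1.86 (1.83 to 1.89) for JC-M3 over JC-P. Over both steps, JC-M3 over JC-WT was 2.84 (2.80 to 2.89), a plain 7.20-fold. The summed level of smooth muscle and pericyte markers was also highest in JC-M3. Their 10 genes summed to 34.4 (JC-WT), 11.6 (JC-P) and 743 TPM (JC-M3), of which the smooth muscle actin gene Acta2 made 16.5 (JC-WT), 2.22 (JC-P) and 642 TPM (JC-M3). Of the 5 measured, 4 lay at least 2-fold higher in JC-M3 over JC-P, against 3.82% of all measured features. These were Acta2, Actg2, Mcam and Tagln. Actg2 and Tagln were measured only through their JC-M3 level, so they had to lie higher there than in JC-P. Rgs5, not measured, was lowest in JC-M3, at 1.97 (JC-WT), 0.57 (JC-P) and 0.16 TPM (JC-M3). Notch3 had reads in JC-P alone, and Myh11 and Cnn1 did not exceed 0.11 TPM. The part of these markers in the result was not tested.

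Col1a2 lies at chr6:4504814-4541544 and encodes the α2 chain that normally joins α1 in type I. It was far scarcer, with 0.25 (JC-WT), 0.66 (JC-P) and 4.40 TPM (JC-M3), from 17 (JC-WT), 54 (JC-P) and 375 reads (JC-M3). JC-M3 was again the high library. The plain TPM ratio was 2.59-fold for JC-P over JC-WT and 6.65-fold for JC-M3 over JC-P, with log2 intervals of 0.57 to 2.26 and 2.32 to 3.17. On the TPM + 0.5 scale the first of these is 0.62, short of 2-fold, and it is 1.10 with 0.1 in place of 0.5. JC-M3 over JC-WT was 17.3-fold (log2 interval 3.41 to 4.90).

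Col1a1 outnumbered Col1a2 in every library, by 517-fold in JC-WT (counting interval 323 to 889), 394-fold in JC-P (302 to 525) and 216-fold in JC-M3 (195 to 239). The deposited values divide Col1a2 reads by 12426 bases of merged exons, while its principal annotated transcript has 5348 bases. For Col1a1 these lengths are 6563 and 5930 bases. With reads divided by principal transcript length, the excess was 246-fold (JC-WT), 188-fold (JC-P) and 103-fold (JC-M3). On either length the α1 transcript was thus the great majority. Trimers of α1(I) alone are known from some tumours and from embryonic tissue, but RNA levels do not show which trimers were made.

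Col3a1, at chr1:45311538-45349706, encodes the only chain of type III, which joins type I in elastic and healing tissues. It had 3.99 (JC-WT), 46.0 (JC-P) and 8.76 TPM (JC-M3). JC-P was the high library, 11.5-fold above JC-WT, with a ratio of 3.37 (3.33 to 3.74). JC-M3 over JC-P was -2.33 (-2.52 to -2.26), and JC-M3 over JC-WT was 1.05 (0.91 to 1.37). From JC-P to JC-M3 the major fibrillar genes Col1a1 and Col3a1 thus differed in opposite directions. The JC-M3/JC-WT ratio dropped under 2-fold with 2 added in place of 0.5 (0.85) and with the median of its chromosome subtracted (0.92). The 12 endothelial markers summed to 277 (JC-WT), 304 (JC-P) and 279 TPM (JC-M3). Of the 4 measured, Plvap was highest in JC-P, at 7.60 (JC-WT), 17.8 (JC-P) and 2.71 TPM (JC-M3). Cdh5 had 0.089 (JC-WT), 17.7 (JC-P) and 0.10 TPM (JC-M3). It is measured through JC-P alone, so that place was fixed by the limit on the mean. Egfl7 was highest in JC-WT, at 4.06 (JC-WT), 3.31 (JC-P) and 2.605 TPM (JC-M3). Eng had 265 to 273 TPM in all libraries, Pecam1 did not exceed 0.24 TPM, and Kdr and Cldn5 were at 0 throughout. The part of these in the result was not tested.

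The promoter windows of Col1a2 and Col3a1 are shown because these genes differed in direction between JC-P and JC-M3. They run from 250 bases before to 50 bases after the transcript start in RefSeq (GRCm38.p6), at chr6:4505368-4505667 and chr1:45311288-45311587, both on the plus strand. Capitals mark matches, on either strand, to the CCAAT box, the TATAAA box, the GGGCGG box of Sp1 and the Smad-binding letters CAGAC.
Col1a2 promoter: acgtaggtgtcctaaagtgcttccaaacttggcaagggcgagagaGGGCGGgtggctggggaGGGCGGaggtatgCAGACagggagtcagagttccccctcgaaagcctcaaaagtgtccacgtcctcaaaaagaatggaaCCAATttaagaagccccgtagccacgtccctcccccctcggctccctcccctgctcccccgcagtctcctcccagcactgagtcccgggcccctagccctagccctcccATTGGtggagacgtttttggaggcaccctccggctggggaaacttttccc
Col3a1 promoter: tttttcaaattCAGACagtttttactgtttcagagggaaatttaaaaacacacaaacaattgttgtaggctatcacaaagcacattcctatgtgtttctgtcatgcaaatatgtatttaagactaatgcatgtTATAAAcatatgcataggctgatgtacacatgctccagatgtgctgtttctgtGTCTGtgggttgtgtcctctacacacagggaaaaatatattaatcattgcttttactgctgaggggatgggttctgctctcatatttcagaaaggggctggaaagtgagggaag
Col1a2 held 2 matches to CCAAT, 2 to GGGCGG and 1 to CAGAC, and none to TATAAA. Col3a1 held 1 match to TATAAA and 2 to CAGAC. The windows had 61.0% and 37.7% GC, beside a median of 52.7% over all 32851 windows of the table. Of all windows 37.4% held CCAAT, 13.6% TATAAA, 35.7% GGGCGG and 49.6% CAGAC. A match describes letters and not a bound site.

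Type V collagen lies inside type I fibrils and sets their diameter. Col5a1, its α1 chain gene, had 35.8 (JC-WT), 46.8 (JC-P) and 95.8 TPM (JC-M3), with ratios of 0.38 (0.30 to 0.47) for JC-P over JC-WT and 1.03 (0.97 to 1.10) for JC-M3 over JC-P. Col5a3, the gene of the rarer α3 chain, had 2.22 (JC-WT), 11.6 (JC-P) and 22.6 TPM (JC-M3), with 2.15 (2.04 to 2.74) for JC-P over JC-WT and 0.94 (0.81 to 1.12) for JC-M3 over JC-P. Both genes were highest in JC-M3, and at 3.09 (3.02 to 3.70) Col5a3 had the highest log2 ratio of the 19 genes for JC-M3 over JC-WT on this scale. Col5a2, the usual partner of Col5a1, was not measured, with 1 (JC-WT), 7 (JC-P) and 19 reads (JC-M3). Col5a1 exceeded Col5a3 by 16.2-fold (JC-WT), 4.04-fold (JC-P) and 4.23-fold (JC-M3).

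Col11a2, a chain of the minor cartilage fibril collagen XI, was low in all libraries. It had 2.11 (JC-WT), 4.21 (JC-P) and 1.74 TPM (JC-M3), highest in JC-P. Its ratio for JC-M3 over JC-P was -1.07 (-1.67 to -0.89), and -0.73 with 2 added in place of 0.5. Its partner Col11a1 had 0 (JC-WT), 2 (JC-P) and 2 reads (JC-M3). The medians of the 6 measured fibrillar genes were 0.91 for JC-P/JC-WT, 0.98 for JC-M3/JC-P and 2.05 for JC-M3/JC-WT.

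**Figure D4:**
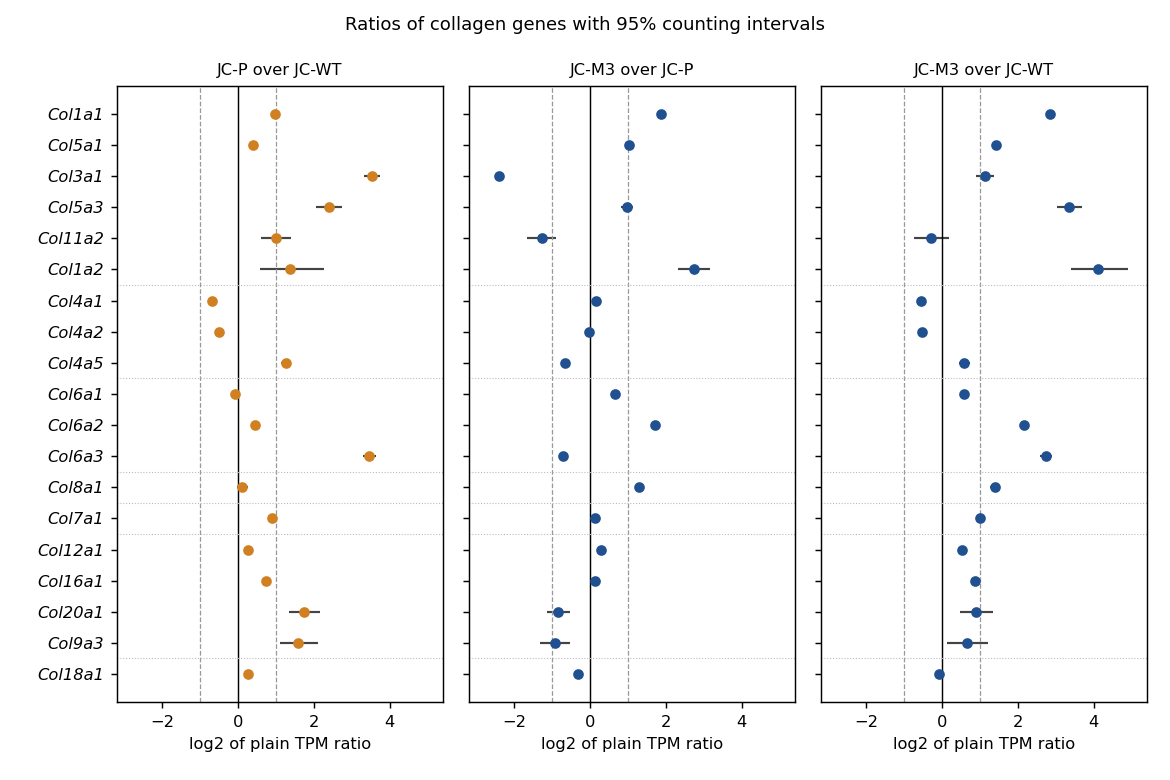
Log2 of the plain TPM ratio (horizontal axis) of the 19 measured collagen genes, with 1 panel per comparison, 95% counting intervals as bars and dashed lines at 2-fold. Intervals of abundant genes are narrower than the points. Col3a1 lies right of 2-fold in JC-P over JC-WT and left of it in JC-M3 over JC-P.

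Within basement membrane collagen IV, the abundant chains were highest in JC-WT. Col4a1 and Col4a2 encode the α1 and α2 chains of the form present in nearly all basement membranes. Col4a1 had 484 (JC-WT), 300.7 (JC-P) and 332 TPM (JC-M3). Col4a2 had 382 (JC-WT), 270.3 (JC-P) and 267 TPM (JC-M3). JC-WT was the high library for both, and JC-P and JC-M3 lay close together. In JC-P over JC-WT the ratio was -0.69 (-0.72 to -0.66) for Col4a1 and -0.50 (-0.54 to -0.46) for Col4a2, both short of 2-fold. In JC-M3 over JC-P it was 0.14 (0.11 to 0.18) for Col4a1 and -0.02 (-0.06 to 0.02) for Col4a2, whose interval takes in no change. Col4a1 exceeded Col4a2 by 1.27-fold (JC-WT), 1.11-fold (JC-P) and 1.25-fold (JC-M3), so the partners stayed near each other in level.

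These genes lie head to head on chromosome 8, Col4a1 on the minus and Col4a2 on the plus strand, and their annotated spans overlap by 22 bases. Their promoter windows, at chr8:11312777-11313076 for Col4a1 and chr8:11312555-11312854 for Col4a2, share 78 bases. They are shown because the partners lay close in level and ratio. Each is written in the direction of its own gene, with capitals as above.
Col4a1 promoter: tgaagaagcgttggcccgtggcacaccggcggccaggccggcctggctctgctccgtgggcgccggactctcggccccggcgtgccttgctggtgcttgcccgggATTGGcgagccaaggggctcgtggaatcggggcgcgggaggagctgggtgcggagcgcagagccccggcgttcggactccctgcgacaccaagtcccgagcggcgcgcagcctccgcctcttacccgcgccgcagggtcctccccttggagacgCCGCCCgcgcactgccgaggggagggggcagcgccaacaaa
Col4a2 promoter: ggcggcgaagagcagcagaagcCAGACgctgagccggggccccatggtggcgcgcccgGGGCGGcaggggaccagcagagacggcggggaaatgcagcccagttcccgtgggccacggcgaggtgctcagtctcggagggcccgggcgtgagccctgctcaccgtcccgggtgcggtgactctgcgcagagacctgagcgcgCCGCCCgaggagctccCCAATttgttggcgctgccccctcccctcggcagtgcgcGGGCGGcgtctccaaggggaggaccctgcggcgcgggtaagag
Col4a1 held 1 match each to CCAAT and GGGCGG. Col4a2 held 1 to CCAAT, 3 to GGGCGG and 1 to CAGAC. The GGGCGG match of Col4a1 lies in the shared bases and is the same site as 1 of the 3 in Col4a2, read from the other strand. The windows had 74.0% and 73.7% GC and 37 and 33 CpG dinucleotides, beside a median of 7 over all windows.

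Col4a5, whose α5 chain occurs in basement membranes of kidney and lung, differed from this pair. It had 17.3 (JC-WT), 41.1 (JC-P) and 25.9 TPM (JC-M3), highest in JC-P, with 1.23 (1.12 to 1.39) for JC-P over JC-WT and -0.65 (-0.77 to -0.56) for JC-M3 over JC-P. Measured coding genes of chromosome X had a median of 0.24 in JC-P over JC-WT, and with that subtracted the Col4a5 ratio was 0.99, just short of 2-fold. The α5 chain is known to join α3 and α4, or α6. None of these partners was measured. Col4a3 had 2 (JC-WT), 1 (JC-P) and 4 reads (JC-M3), Col4a4 had 0 reads in all libraries, and Col4a6 had 0 (JC-WT), 1 (JC-P) and 0 reads (JC-M3), beside 622 (JC-WT), 1815 (JC-P) and 1196 reads (JC-M3) of Col4a5.

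Col4a6 and Col4a5 also lie head to head, on chromosome X, with 1308 bases between them. Their promoter windows, at chrX:141474027-141474326 on the minus strand and chrX:141475169-141475468 on the plus strand, are shown beside the chromosome 8 pair because here 1 gene was expressed and its neighbour nearly silent.
Col4a6 promoter: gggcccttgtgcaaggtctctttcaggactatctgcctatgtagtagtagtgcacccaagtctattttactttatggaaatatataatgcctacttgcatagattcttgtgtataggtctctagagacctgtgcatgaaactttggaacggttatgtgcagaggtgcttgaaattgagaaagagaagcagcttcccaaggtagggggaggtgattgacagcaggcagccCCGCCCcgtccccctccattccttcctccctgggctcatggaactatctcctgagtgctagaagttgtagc
Col4a5 promoter: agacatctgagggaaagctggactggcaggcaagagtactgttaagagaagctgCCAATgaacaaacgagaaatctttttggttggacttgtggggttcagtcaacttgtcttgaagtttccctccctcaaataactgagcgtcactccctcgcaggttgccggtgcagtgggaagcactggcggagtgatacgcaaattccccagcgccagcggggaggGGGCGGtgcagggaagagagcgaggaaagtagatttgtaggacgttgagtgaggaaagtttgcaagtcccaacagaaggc
Col4a6 held 1 match to GGGCGG, and Col4a5 held 1 each to GGGCGG and CCAAT. The windows share no base and had 48.3% and 52.7% GC, with 3 and 11 CpG dinucleotides.

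Type VI collagen forms microfilaments from α1, α2 and α3 chains together, and all 3 genes were measured. Col6a1, the α1 chain gene, had 193 (JC-WT), 183 (JC-P) and 289.9 TPM (JC-M3). Col6a2, the α2 chain gene, had 23.5 (JC-WT), 32.1 (JC-P) and 105 TPM (JC-M3). Col6a3, the gene of the large α3 chain, had 5.23 (JC-WT), 57.6 (JC-P) and 35.1 TPM (JC-M3). Col6a1 and Col6a2 were highest in JC-M3, and Col6a3 in JC-P. For Col6a3 the ratio was 3.34 (3.30 to 3.62) in JC-P over JC-WT, -0.71 (-0.78 to -0.65) in JC-M3 over JC-P and 2.64 (2.58 to 2.91) in JC-M3 over JC-WT. For Col6a2 it was 0.44 (0.34 to 0.56), 1.70 (1.64 to 1.79) and 2.14 (2.07 to 2.26) in the same comparisons. For Col6a1 it was -0.08 (-0.14 to -0.03), 0.67 (0.62 to 0.72) and 0.58 (0.53 to 0.64). The first step thus differed most in Col6a3 and the second in Col6a2. Col6a1 and Col6a2 lie on chromosome 10, whose measured coding genes had medians of 0.19 (JC-P/JC-WT), 0.22 (JC-M3/JC-P) and 0.41 (JC-M3/JC-WT). The last stands beside 0.58 for Col6a1 in that comparison. The 12 fibroblast markers outside the collagens summed to 87.6 (JC-WT), 112 (JC-P) and 136 TPM (JC-M3), mostly Pdgfra and Pdgfrb. Of the 5 measured, 2 had ratios above 0 in JC-P over JC-WT, against 50.9% of all measured features. These were the proteoglycan gene Dcn at 3.06 and Pdgfra at 0.48, and the median of the 5 was -0.07. The part of the fibroblast markers in the collagen ratios was not tested.

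The chains of type VI stood farthest apart in JC-WT. Col6a1 exceeded Col6a2 by 8.24-fold (JC-WT), 5.69-fold (JC-P) and 2.75-fold (JC-M3). On principal transcript lengths, 4100 bases for Col6a1 and 3949 for Col6a2 where its merged exons make 8326, the excess was 4.18-fold (JC-WT), 2.88-fold (JC-P) and 1.39-fold (JC-M3). The ratio of Col6a3 to Col6a1 was 0.0271 (JC-WT), 0.316 (JC-P) and 0.121 (JC-M3). Col6a3 was the scarcest of the chains in JC-WT and JC-M3. In JC-P Col6a2 was, although on principal transcript lengths Col6a3 exceeded it there by only 1.13-fold. The genes of chains related to α3, side by side on chromosome 9, were not measured. Col6a4 had 0 (JC-WT), 5 (JC-P) and 16 reads (JC-M3) and Col6a5 1 (JC-WT), 0 (JC-P) and 2 reads (JC-M3), and Col6a6 had none.

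**Figure D5:**
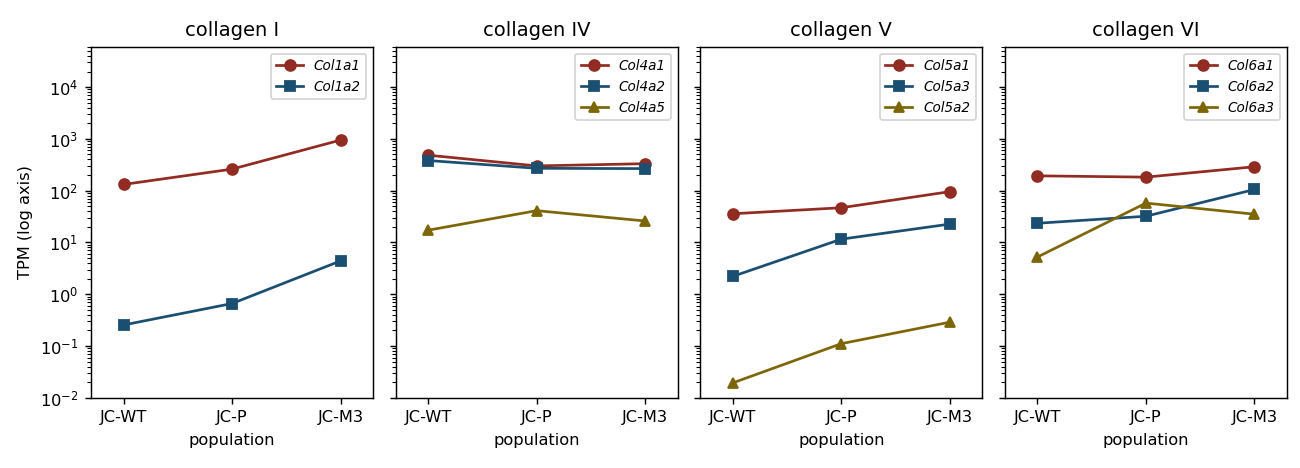
TPM (vertical axis, logarithmic) of chain genes of collagens I, IV, V and VI by population, with 1 library per point and lines joining the points of a gene. Col1a2 and Col5a2 lie far below Col1a1 and Col5a1 in every library, Col4a1 and Col4a2 run together, and Col6a3 crosses Col6a2 in JC-P.

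Fibril-associated collagens coat fibrils without forming them. Col12a1, of type XII, known from tendon and stressed matrix, had 125 (JC-WT), 149.8 (JC-P) and 181 TPM (JC-M3). Col16a1, of type XVI, known from skin and smooth muscle, had 71.8 (JC-WT), 120.2 (JC-P) and 132 TPM (JC-M3). Both were lowest in JC-WT and within 2-fold, with ratios for JC-M3 over JC-WT of 0.53 (0.50 to 0.57) for Col12a1 and 0.88 (0.82 to 0.95) for Col16a1.

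Col9a3, a chain of cartilage type IX, and Col20a1, of type XX, were low and highest in JC-P. Col9a3 had 2.08 (JC-WT), 6.24 (JC-P) and 3.29 TPM (JC-M3), with 1.39 (1.09 to 2.11) for JC-P over JC-WT. Col20a1 had 2.28 (JC-WT), 7.64 (JC-P) and 4.28 TPM (JC-M3), with 1.55 (1.34 to 2.16). Both lay lower in JC-M3 than in JC-P, at -0.83 (-1.32 to -0.54) for Col9a3 and -0.77 (-1.13 to -0.54) for Col20a1. They lie 364345 bases apart on chromosome 2, with 8 coding genes between them. Of the Col20a1 exons 79 bases are shared with 9230112E08Rik on the same strand, at 11.7 (JC-WT), 16.9 (JC-P) and 12.9 TPM (JC-M3), so part of the Col20a1 level is uncertain. The partners of Col9a3 were nearly without reads, Col9a1 with 4 (JC-WT), 0 (JC-P) and 0 reads (JC-M3) and Col9a2 with 2 (JC-WT), 2 (JC-P) and 0 reads (JC-M3).

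The other measured types were each made from 1 measured gene. Col18a1 encodes type XVIII, a basement membrane proteoglycan whose end fragment is endostatin. It had 335 (JC-WT), 398 (JC-P) and 319.6 TPM (JC-M3), with 0.25 (0.21 to 0.28) for JC-P over JC-WT and -0.31 (-0.35 to -0.28) for JC-M3 over JC-P. Col7a1, of the anchoring fibrils under epithelia, had 32.0 (JC-WT), 59.3 (JC-P) and 64.4 TPM (JC-M3), lowest in JC-WT. Its ratio was 0.88 (0.81 to 0.97) for JC-P over JC-WT and 1.00 (0.93 to 1.09) for JC-M3 over JC-WT, just short of 2-fold, and the alternative scalings or 0.1 in place of 0.5 took it just past. Col8a1, of the short-chain network of vessel walls, had 16.5 (JC-WT), 17.8 (JC-P) and 43.4 TPM (JC-M3). Its interval took in no change for JC-P over JC-WT, at 0.10 (-0.04 to 0.25), and JC-M3 over JC-P was 1.26 (1.17 to 1.40). Its partner Col8a2 had 2 (JC-WT), 1 (JC-P) and 5 reads (JC-M3).

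The remaining 25 collagen genes averaged under 1 TPM. Among them 6 had no read in any library, namely Col4a4, Col6a6, Col19a1, Col23a1, Col25a1 and Col26a1. A floor of 3 reads allows each of these up to 0.0974 TPM, so lower levels were not detectable at this depth. The highest level of the 25 was that of Col17a1, the hemidesmosome collagen of basal epithelium, at 1.18 (JC-WT), 0.785 (JC-P) and 0.339 TPM (JC-M3). Col22a1, of tissue junctions, had 22 (JC-WT), 38 (JC-P) and 25 reads (JC-M3), Col27a1, a cartilage fibrillar chain, 23 (JC-WT), 23 (JC-P) and 16 reads (JC-M3) and Col28a1 5 (JC-WT), 19 (JC-P) and 0 reads (JC-M3). Col2a1, of cartilage type II, had 1 (JC-WT), 0 (JC-P) and 17 reads (JC-M3) and Col10a1, of hypertrophic cartilage, 3 (JC-WT), 0 (JC-P) and 11 reads (JC-M3). Col13a1, Col14a1, Col15a1 and Col24a1 had at most 8 reads in a library.

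Close neighbours did not always share a level. Col3a1 and Col5a2 lie tail to tail on chromosome 1, 24614 bases apart, with 210 (JC-WT), 2968 (JC-P) and 590 reads (JC-M3) of Col3a1 beside 1 to 19 reads of Col5a2. Col4a4 and Col4a3, head to head on chromosome 1 with 71 bases between them, were both at or near 0. Col6a2 and Col6a1, on 1 strand of chromosome 10 and 85161 bases apart, are described above.

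The next lists are read against the same shares of all measured features as the collagen genes, 4.76% higher and 2.33% lower (JC-P/JC-WT), 3.82% and 5.38% (JC-M3/JC-P) and 6.14% and 5.27% (JC-M3/JC-WT). Enzymes that modify the chains before folding were mostly within 2-fold. Of 15 genes for hydroxylation and glycosylation 13 were measured, with medians of 0.14 for JC-P/JC-WT, 0.47 for JC-M3/JC-P and 0.46 for JC-M3/JC-WT. The number at least 2-fold higher was 0 for JC-P/JC-WT, 2 for JC-M3/JC-P and 3 for JC-M3/JC-WT, and 0 lay lower in any comparison. Plod2, which hydroxylates lysines of chain ends, had 14.6 (JC-WT), 26.1 (JC-P) and 69.5 TPM (JC-M3), with 1.39 (1.30 to 1.52) for JC-M3 over JC-P. P3h4, of the lysyl hydroxylation complex, had 0 (JC-WT), 1 (JC-P) and 60 reads (JC-M3), and as it counts as measured through JC-M3 alone it had to be among the higher genes there. P3h3, of the same complex, had 7.25 (JC-WT), 12.0 (JC-P) and 16.1 TPM (JC-M3). Plod2, P3h4 and P3h3 were highest in JC-M3, like Col1a1. Other members of the list were lowest there, within 2-fold. P4ha2 had 25.9 (JC-WT), 32.5 (JC-P) and 19.0 TPM (JC-M3) and P3h2 had 3.96 (JC-WT), 3.23 (JC-P) and 2.59 TPM (JC-M3).

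For folding and export all 12 genes were measured, with medians of 0.30 for JC-P/JC-WT, -0.01 for JC-M3/JC-P and 0.37 for JC-M3/JC-WT, and the number at least 2-fold higher was 2 for JC-P/JC-WT, 2 for JC-M3/JC-P and 3 for JC-M3/JC-WT, with 0 lower. Serpinh1, encoding the collagen chaperone HSP47, was abundant and within 2-fold, at 1049 (JC-WT), 1200 (JC-P) and 1239 TPM (JC-M3). Fkbp10, a prolyl isomerase needed for crosslinking of type I, had 0.19 (JC-WT), 0.21 (JC-P) and 66.4 TPM (JC-M3), from 3 (JC-WT), 4 (JC-P) and 1338 reads (JC-M3). It too counts as measured through JC-M3 alone, so its place among the higher genes there was fixed by that limit. Rcn3, a calcium-binding protein of the secretory pathway, had 1.84 (JC-WT), 5.14 (JC-P) and 96.3 TPM (JC-M3). Both were by far highest in JC-M3. Fkbp9, of the Fkbp10 family, had 55.7 (JC-WT), 66.6 (JC-P) and 120.3 TPM (JC-M3). Creb3l1, a transcription factor that activates Col1a1 in bone, had 20.8 (JC-WT), 43.4 (JC-P) and 26.0 TPM (JC-M3) and was highest in JC-P.

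For removal of propeptides and crosslinking, 9 of 13 genes were measured, with medians of 0.01 for JC-P/JC-WT, -0.53 for JC-M3/JC-P and -0.02 for JC-M3/JC-WT. The number higher was 1 for JC-P/JC-WT, 1 for JC-M3/JC-P and 2 for JC-M3/JC-WT and the number lower 0 for JC-P/JC-WT, 2 for JC-M3/JC-P and 1 for JC-M3/JC-WT. Loxl1, a crosslinking oxidase, had 125 (JC-WT), 80.8 (JC-P) and 22.1 TPM (JC-M3). Bmp1, the C-propeptide proteinase, had 74.9 (JC-WT), 87.4 (JC-P) and 40.1 TPM (JC-M3). Both were lowest in JC-M3, where Col1a1 was highest. Pcolce2, an enhancer of that proteinase, had 0.68 (JC-WT), 0.59 (JC-P) and 9.17 TPM (JC-M3). It was the 1 higher gene in JC-M3 over JC-P and is measured through JC-M3 alone, so it had to be higher there. Adamts2, an N-propeptide proteinase, had 0.22 (JC-WT), 2.38 (JC-P) and 1.36 TPM (JC-M3). It was the 1 higher gene in JC-P over JC-WT. As its mean passes the limit only through its JC-P level, it had to be higher there.

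Receptor genes lay mostly within 2-fold, and genes of breakdown and its inhibition went both ways. Of 10 receptor genes 7 were measured, with medians of 0.20 for JC-P/JC-WT, 0.15 for JC-M3/JC-P and 0.21 for JC-M3/JC-WT, and 1 lay past 2-fold, Itga1, an integrin of collagen receptors, with 3.32 (JC-WT), 1.36 (JC-P) and 2.62 TPM (JC-M3). The discoidin domain receptor gene Ddr2 had 186 (JC-WT), 247 (JC-P) and 248 TPM (JC-M3). Of 11 genes of breakdown 8 were measured, the inhibitor genes Timp1, Timp2 and Timp3 included. The medians, which mix proteases with inhibitors, were -0.15 for JC-P/JC-WT, -0.09 for JC-M3/JC-P and 0.11 for JC-M3/JC-WT. The number higher was 1 for JC-P/JC-WT, 1 for JC-M3/JC-P and 0 for JC-M3/JC-WT. The number lower was 2 for JC-P/JC-WT, 1 for JC-M3/JC-P and 2 for JC-M3/JC-WT. The gelatinase gene Mmp2 was highest in JC-P, at 45.6 (JC-WT), 123 (JC-P) and 47.9 TPM (JC-M3). The other gelatinase gene, Mmp9, was highest in JC-WT, at 20.2 (JC-WT), 7.35 (JC-P) and 4.24 TPM (JC-M3), as was the collagenase gene Mmp1a at 3.77 (JC-WT), 0.75 (JC-P) and 0.22 TPM (JC-M3), which is measured through JC-WT alone and so had to be lower in the others. The inhibitor gene Timp2 had 755 (JC-WT), 546.5 (JC-P) and 1142 TPM (JC-M3), highest in JC-M3, and was the 1 higher gene in JC-M3 over JC-P.

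Marker genes of other cell types were read beside these results, since in bulk RNA a difference in cell numbers and a difference in RNA per cell cannot be told apart. Of the 12 fibroblast markers 4 were at 0 in every library (Lum, Fbln1, Tcf21 and Thy1), but the growth factor receptor genes Pdgfra and Pdgfrb were expressed in all 3. Pdgfra had 34.1 (JC-WT), 47.6 (JC-P) and 20.1 TPM (JC-M3) and Pdgfrb had 48.7 (JC-WT), 46.5 (JC-P) and 87.9 TPM (JC-M3). Dcn had 1.24 (JC-WT), 14.0 (JC-P) and 22.5 TPM (JC-M3), Postn had 1.18 (JC-WT), 0.56 (JC-P) and 4.69 TPM (JC-M3) and Dpt had 2.27 (JC-WT), 2.12 (JC-P) and 0.25 TPM (JC-M3). Of the 5 measured, Dcn, Pdgfrb and Postn were thus highest in JC-M3, Pdgfra in JC-P and Dpt in JC-WT. Postn was measured only through its JC-M3 level, so it had to be highest there. Fap, not measured, had 2 (JC-WT), 26 (JC-P) and 10 reads (JC-M3).

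Among smooth muscle and pericyte markers Actg2 had 1.44 (JC-WT), 0.098 (JC-P) and 72.6 TPM (JC-M3), Mcam had 9.68 (JC-WT), 2.00 (JC-P) and 19.8 TPM (JC-M3) and Tagln had 1.12 (JC-WT), 0.84 (JC-P) and 2.57 TPM (JC-M3). All 5 measured members of that list, Des included, had ratios above 0 in JC-M3 over JC-P, against 49.2% of all measured features. For Actg2 and Tagln this was fixed by the limit, as they are measured only through their JC-M3 level. Rgs5, not measured, went the other way. Cdh5 counts as measured through JC-P alone, so it had to be higher there than in JC-WT and JC-M3.

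The 13 macrophage and leukocyte markers summed to 70.5 (JC-WT), 50.3 (JC-P) and 73.8 TPM (JC-M3), mostly Cd14, with 6 of them, Ptprc included, at 0 in all libraries. Among measured members Itgax was the one past 2-fold, at 2.06 (JC-WT), 0.73 (JC-P) and 0.49 TPM (JC-M3), and is measured through JC-WT alone. Of the unmeasured, C1qc had 0 (JC-WT), 0 (JC-P) and 13 reads (JC-M3) and Lyz2 had 4 (JC-WT), 2 (JC-P) and 16 reads (JC-M3). Csf1r went the other way, with 17 (JC-WT), 11 (JC-P) and 8 reads (JC-M3). Of 6 lung epithelial markers 5 were at 0 in all libraries, and the list summed to 1.22 (JC-WT), 2.91 (JC-P) and 2.52 TPM (JC-M3). The 6 adipocyte markers summed to at most 0.166 TPM.

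The 16 epithelial markers summed to 1608 (JC-WT), 1950.4 (JC-P) and 709 TPM (JC-M3), lowest in JC-M3. Of the 5 measured, 4 lay at least 2-fold lower in JC-M3 than in JC-P, against 5.38% of all measured features. These were Krt8, the keratin gene Krt18 at 48.6 (JC-WT), 48.5 (JC-P) and 18.4 TPM (JC-M3), the junction gene Jup at 48.2 (JC-WT), 26.7 (JC-P) and 7.09 TPM (JC-M3) and the tight junction gene Ocln at 4.06 (JC-WT), 0.87 (JC-P) and 0.035 TPM (JC-M3), the last measured through JC-WT alone. Krt7 went the other way, with 1.74 (JC-WT), 0.58 (JC-P) and 1.70 TPM (JC-M3). Its ratio for JC-M3 over JC-P was 1.02 (0.90 to 2.23), past 2-fold upward, against 3.82% of all measured features. The part of any of these marker lists in the collagen ratios was not tested.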

How the data were processed

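The authors deposited 1 table of TPM for 55471 features in 3 libraries, as named by the column headers. FastQC 0.11.9, STAR 2.7.9a and featureCounts, and the builds mm10 and GRCm38, are credited to the submitters' processing notes. Which annotation release was counted, and with which strand setting, is not given in the sources used here. The library kit was stranded, per the labels' protocols. Values were used as deposited, with log2 ratios of TPM + 0.5 for features averaging at least 1 TPM and a 2-fold limit. No significance test was run, as each population had 1 library.

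TPM times merged exon length (GENCODE M21) fell on whole multiples of 1 read, within 0.01 of a read, for 98.4% to 98.5% of expressed features, which gave reads and exact (Clopper-Pearson) intervals. Col5a1 needed 8559 bases in place of 8490. Intervals and the floor of 3 reads cover counting error only, since duplicate reads are not separate molecules. At most 4.87% of the 50-base windows of any measured collagen gene occurred in other genes. Promoter windows came from RefSeq (GRCm38.p6) and matched 35 of 44 genes by symbol.

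Every measured collagen gene was named, as were measured members of the other lists at least 2-fold apart in a comparison. Members of those lists named within 2-fold or unmeasured were chosen after their values were seen. Members and lists were chosen with earlier results of these data known. Alternatives were scaling, pseudocount, filter, threshold, length and chromosome medians. Scripts were tested on simulated data. Python 3.11.15 was used with scipy 1.17.1, numpy 2.4.6, matplotlib 3.10.9 and pandas 2.3.3.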

Additional observations from a re-analysis of the deposited data

How the results depend on the processing

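No paired analysis was possible because each population has 1 library. With a 1.5-fold limit, 11 collagen genes were higher and 1 lower in JC-P over JC-WT (all measured features 12.0% and 6.9%), 7 higher and 6 lower in JC-M3 over JC-P (10.0% and 13.3%) and 11 higher and 0 lower in JC-M3 over JC-WT (14.0% and 12.5%). With a 3-fold limit the counts were 3 and 0 (1.95% and 0.909%), 3 and 1 (1.51% and 2.11%) and 5 and 0 (2.63% and 2.2%) in the same comparisons. A minimum mean of 10 TPM left 1 lower in JC-M3 over JC-P, as did a pseudocount of 2, and moved the collagen median to 0.44 in JC-P over JC-WT and 1.00 in JC-M3 over JC-WT. With no filter, which adds genes with few reads, the medians were 0.061 (JC-P/JC-WT), 0.00 (JC-M3/JC-P) and 0.055 (JC-M3/JC-WT). The JC-P/JC-WT median was 0.89 with a pseudocount of 0.1 and 0.59 with 2, and the fibrillar median for JC-M3 over JC-WT was 1.44 with 2. In JC-P over JC-WT a pseudocount of 2 also left 0 folding and export genes higher, 0 propeptide and crosslinking genes higher and 0 receptors lower, and it left 1 propeptide and crosslinking gene higher in JC-M3 over JC-WT. A pseudocount of 0.1 made 2 breakdown genes lower in JC-M3 over JC-P. No log2 ratio of a single collagen gene changed sign under either other scaling or with chromosome medians subtracted. A pseudocount cannot change a sign, and summing repeated rows changed nothing because no collagen symbol was repeated. The side of the 2-fold limit changed for 1 of 57 values with either other scaling, for 2 with either pseudocount and for 5 with chromosome medians subtracted, an alternative chosen after the data were seen, as were principal transcript lengths. As log2 ratios, Col1a1 over Col1a2 was 8.54 and 5.89 in JC-WT, 8.42 and 6.62 in JC-P with pseudocounts of 0.1 and 2, and 7.21 in JC-M3 with 2. With principal transcript lengths it was 7.15 in JC-P and 6.61 in JC-M3. On those lengths Col4a1 over Col4a2 was 0.48 (JC-WT), 0.29 (JC-P) and 0.45 (JC-M3), Col6a1 over Col6a2 was 2.05, 1.52 and 0.48 in that order, Col6a3 over Col6a1 was -4.80, -1.34 and -2.72, and Col5a1 over Col5a3 was 1.93 in JC-M3. With a pseudocount of 2, Col5a1 over Col5a3 was 3.17 and Col6a3 over Col6a1 -4.76 in JC-WT. As a share of collagen reads in place of TPM, Col18a1 took 17.0% (JC-WT), 18.1% (JC-P) and 10.5% (JC-M3), Col1a1 6.24%, 11.1% and 29.2%, Col6a1 6.11%, 5.17% and 5.96% and Col4a2 18.3%, 11.6% and 8.29% in that order, and Col4a1 took 14.5% in JC-P. Reads weight long transcripts more by construction. Genes with few reads, such as Col4a6 with at most 1, allow no ratio at this depth.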
